A study of Rattus norvegicus with 26 samples.

Results

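The mature myelin protein genes examined here were Mbp, Mog, Mag, Cnp, Mobp, Mal, Cldn11, Opalin and Ermn, a list of gene names that follows what is known of central myelin and was drawn up with earlier results of these data known, and all 9 were found among the 17910 gene IDs measured in the dentate gyrus (DG), the hippocampal subregion of the granule cells. All 9 passed the filter on low values (a mean of 5 or more normalized counts), as did 15595 genes in all. The tissue came from male F344 rats 6 months of age, from 1 hemisphere per rat, and 1 library of poly(A) RNA was made per rat. The 10 Veh rats received vehicle and belonged to an ongoing study of brain aging. The 8 Dox rats received the anthracycline doxorubicin intraperitoneally, 2 mg/kg weekly over 4 weeks. The 8 Dox + ABT rats received the same doxorubicin and ABT-263, a senolytic that blocks anti-apoptotic Bcl-2 proteins, by gavage at 12 mg/kg on 5 consecutive days every other week. No group received ABT-263 without Dox, so its effect can be read only on top of Dox. The values are the authors' normalized counts, summed over the transcript rows of a gene, and each library's values sum to between 14255800 and 20285400.

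Myelin is the lipid-rich membrane that oligodendrocytes wrap around axons, and in the brain its compaction, its adhesion to the axon and its insulating seams depend on a small set of proteins. These genes are switched on together late in oligodendrocyte differentiation, under transcription factors such as Sox10, Olig2 and Myrf. The granule cell axons of the DG are largely unmyelinated, and the oligodendrocytes of this tissue serve mainly the fibres that enter and cross it.

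Prox1, the transcription factor that defines the granule cells of the DG, lay between 1680 and 3587 normalized counts in the 26 libraries, and the summed level of the 4 measured granule cell markers lay between 7257 and 12442. The 4 markers of CA1 pyramidal cells (Wfs1, Fibcd1 and Mpped1 among them), neurons of the adjacent hippocampal field, summed to between 2327 and 15942 in Veh, 2184 and 14081 in Dox, and 2819 and 22658 in Dox + ABT. These sums differed several-fold between rats of the same group. Pmp2, which marks the myelin of peripheral Schwann cells, had medians between 0.936 and 3.57 normalized counts in the 3 groups, and only Prx of that list passed the filter, at 7.42 to 33.2. The choroid plexus marker Ttr lay between 5.46 and 310.1 normalized counts. The first principal component of the deviations within groups held 28.4% of their variance and divided the libraries into 2 kinds that no label names. Of these, 4 Veh, 5 Dox and 7 Dox + ABT libraries were of the first kind, and 6, 3 and 1 of the second, with 0.700% to 1.32% and 1.39% to 2.21% of normalized counts in ribosomal protein genes. Because the kinds were spread unevenly over the groups, the changes of Cnp, Cldn11, Ermn, Mag, Mbp and Opalin are also given within the kinds. Among the 101 pairs of rats within groups, Dox 5 and Dox 7 stood apart together in 59 genes and Dox 1 and Dox 2 in 53, of 12129 genes averaging 50 or more normalized counts, lying at least 1 log2 unit beyond every other rat of their group. The next pair stood apart in 13 genes. In Dox 1 and Dox 2 the metallothionein gene Mt1 reached 1492 and 1643 normalized counts against 116 to 225 in the other 6 Dox rats, and Cdkn1a, the cell cycle inhibitor p21, reached 510.4 and 530.3 against 62.2 to 109, genes that were chosen after their values were seen.

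Mbp, which encodes the myelin basic protein that draws the cytoplasmic faces of the membrane together, took most of the signal of these genes. Its level lay between 25851 (Veh 10) and 84848 (Veh 6) normalized counts. Mbp accounted for 71.0% to 81.2% of the summed level of the 9 genes in each rat. Together the 9 genes took 0.240% to 0.695% of all normalized counts in Veh, with a mean of 0.375% ± 0.136 (SD, n = 10). The share was 0.277% to 0.436% in Dox, 0.327% ± 0.0542 (SD, n = 8), and 0.295% to 0.564% in Dox + ABT, 0.386% ± 0.0889 (SD, n = 8). The 3 groups overlapped, and the Veh rats alone spanned a wider range than either treated group.

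**Figure D1:**
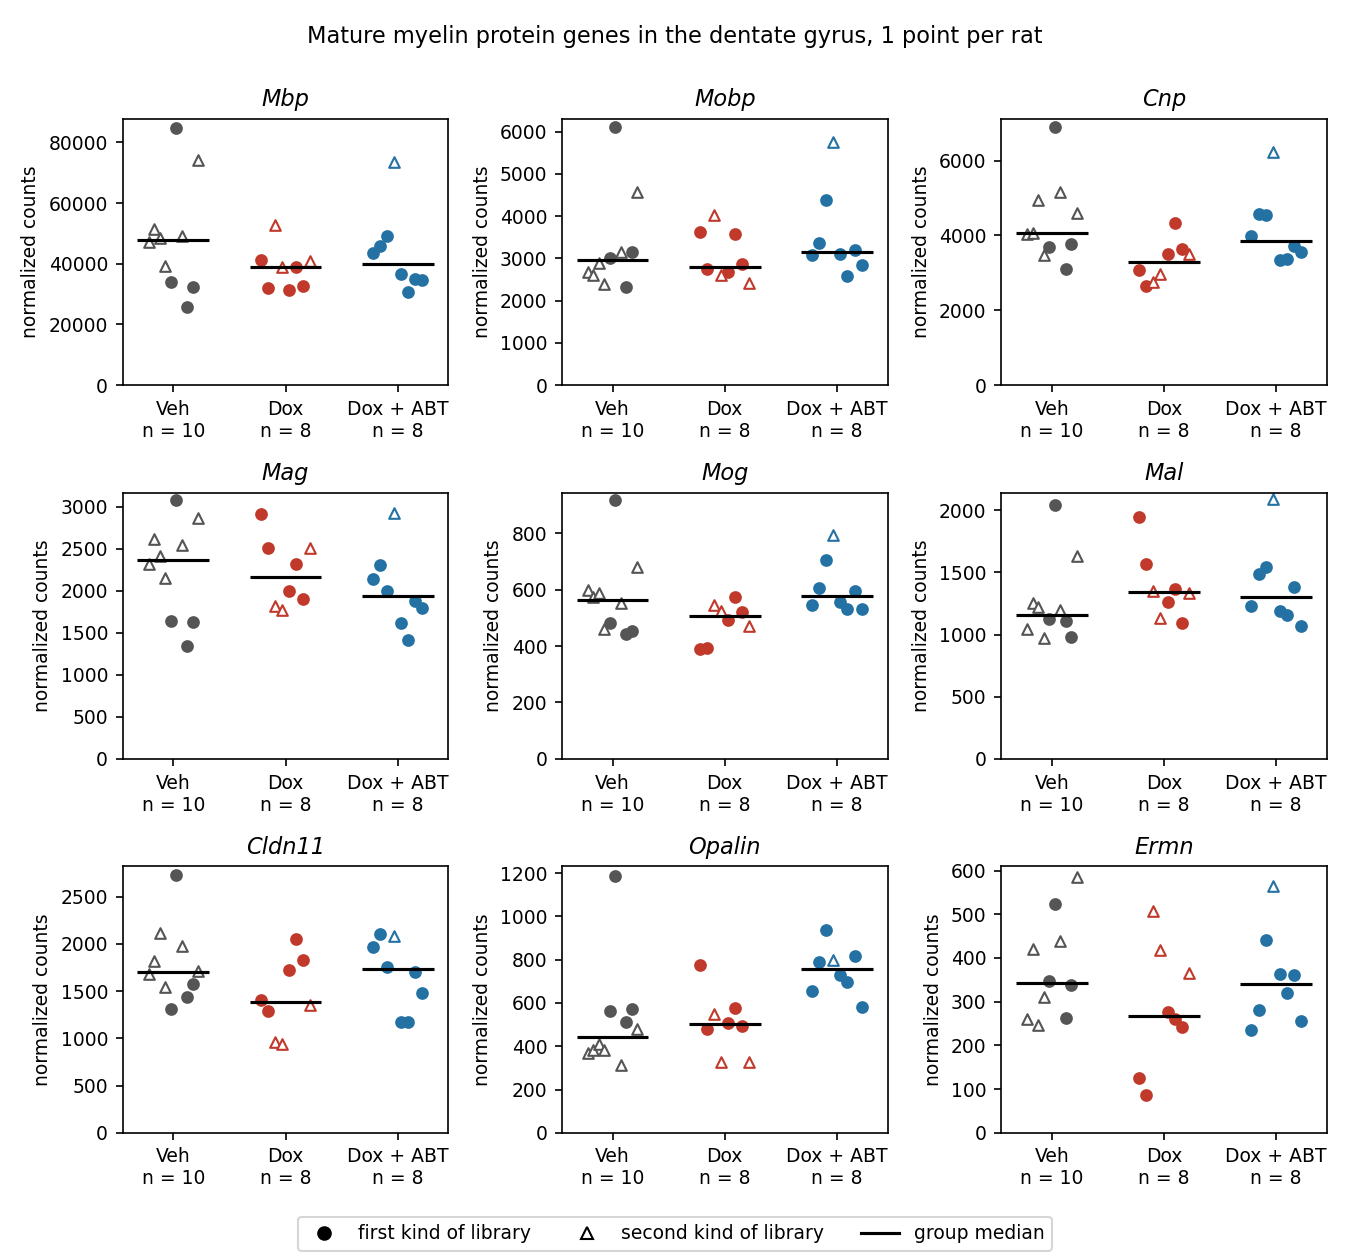
Normalized counts of the 9 mature myelin protein genes (y axis, linear, from 0) in each rat of the Veh, Dox and Dox + ABT groups (x axis), with the group median as a line; filled circles mark the first kind of library and open triangles the second. The groups overlap for every gene, Opalin sits highest in Dox + ABT apart from Veh 6 at 1188 and Dox 1 at 775, and Ermn is lowest in 2 Dox rats at 126 and 85.6.

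Promoter sequences from RefSeq (build GRCr8) were found for 7 of the 9 genes, and that of Mbp has 2 entries. Those of Opalin and Cnp, the genes called in the comparisons that follow, and of Mobp, which has the most matches, are shown with motif matches in capitals. The motifs were ACAAAG and ACAATG, both cores bound by Sox proteins, CAGCTG, an E-box of the kind bound by basic helix-loop-helix factors, and TATAAA, searched on both strands with no overlap between the matches shown. Each sequence is written 5′ to 3′ along the strand of its gene.
Opalin (chr1:249858141-249858440, minus strand): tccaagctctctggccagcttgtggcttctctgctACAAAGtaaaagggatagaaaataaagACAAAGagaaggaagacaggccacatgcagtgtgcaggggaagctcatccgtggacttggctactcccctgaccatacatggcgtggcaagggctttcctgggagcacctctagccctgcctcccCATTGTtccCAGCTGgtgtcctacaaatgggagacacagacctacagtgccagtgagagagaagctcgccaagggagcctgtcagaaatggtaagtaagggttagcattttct
Cnp (chr10:86011254-86011553, plus strand): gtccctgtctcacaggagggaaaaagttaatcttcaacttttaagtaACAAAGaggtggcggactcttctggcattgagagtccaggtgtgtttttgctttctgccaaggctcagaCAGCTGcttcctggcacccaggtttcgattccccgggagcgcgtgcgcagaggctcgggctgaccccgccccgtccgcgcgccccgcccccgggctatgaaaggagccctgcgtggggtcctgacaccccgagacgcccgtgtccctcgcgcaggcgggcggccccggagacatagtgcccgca
Mobp (chr8:128746982-128747281, plus strand): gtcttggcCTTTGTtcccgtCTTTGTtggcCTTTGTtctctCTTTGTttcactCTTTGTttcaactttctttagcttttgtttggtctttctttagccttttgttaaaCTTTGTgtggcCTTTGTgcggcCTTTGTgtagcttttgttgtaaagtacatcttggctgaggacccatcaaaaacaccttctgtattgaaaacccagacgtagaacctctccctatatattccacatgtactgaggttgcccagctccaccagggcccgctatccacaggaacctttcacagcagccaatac
The Opalin promoter held ACAAAG at 2 positions, ACAATG at 1 and CAGCTG at 1, and the Cnp promoter held ACAAAG and CAGCTG at 1 position each. The Mobp promoter held 8 matches to ACAAAG, all of them as CTTTGT on the strand shown and within a stretch of similar repeats. ACAAAG was found in 5 of the 8 promoter entries of these genes and in 18.8% of 33469 rat promoters of the same length, ACAATG in 2 of 8 and 13.2%, CAGCTG in 3 of 8 and 15.1%, and TATAAA in 0 of 8 and 14.2%. A match of letters is a description of the sequence and not a binding site.

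To determine whether Dox treatment altered these genes, the Dox group was compared with the Veh group. Cnp was lower in Dox and was the only gene of the 9 called at the study's threshold, an unadjusted p under 0.01 in limma. The levels of Cldn11, Ermn, Mog and Mbp also lay lower on average but did not pass, and those of Mag, Mobp and Opalin lay close to Veh. Of all 15595 genes tested, 289 (1.85%) were called lower and 159 (1.02%) higher, together 448 (2.87%), and 3 genes had an adjusted p under 0.05, none of them among these 9. In bulk tissue, fewer oligodendrocytes and less RNA per oligodendrocyte cannot be told apart. The median log2 change over the 9 genes was -0.21, beside 0.005 over all genes tested, and 7 of the 9 lay lower beside 48.9% of all genes. Without Dox 1 and Dox 2 this median was -0.11 with 8 of 9 lower, and -0.05 with 6 of 9 lower when Veh 6 was left out as well. It was -0.13 with 5 of 9 lower without Veh 6 alone, and -0.11 with 6 of 9 lower with array weights. With the replicate block it was -0.06 with 5 of 9 lower. The block fits kept only rats whose replicate number occurs in both groups, here 5 numbers. The CA1 markers Wfs1, Mpped1 and Fibcd1 gave -0.40, -0.30 and -0.05 in the same comparison, with p of 0.405 to 0.894, and their part in the result was not tested.

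Cnp encodes the cyclic nucleotide phosphodiesterase that keeps cytoplasmic channels open within the myelin sheath. Its level ran from 3116 through a median of 4054 to 6908 normalized counts in Veh and from 2637 through 3289 to 4331 in Dox, with means of 4379 ± 1099 (SD, n = 10) and 3304 ± 558 (SD, n = 8). The groups overlapped, although 7 of 8 Dox rats lay below the Veh median and 4 lay below every Veh rat. Those 4 were Dox 1, Dox 2, Dox 5 and Dox 7, at 3070, 2637, 2751 and 2965, the pairs that stood apart, and the other 4 Dox rats, at 3507 to 4331, lay within the range of Veh. The difference was -0.39 on the log2 scale (SE 0.13), with p = 0.00721 and an adjusted p of 0.311 in limma, and a two-sided exact permutation test of the 18 rats gave p = 0.0120. The call was a borderline one. It was lost when the kind of library was a covariate (-0.37, p = 0.0107), without Dox 1 and Dox 2 (-0.32, p = 0.0375), without Dox 5 and Dox 7 (-0.32, p = 0.0362), with array weights (-0.24, p = 0.0610), without Dox 1, Dox 2 and Veh 6 (-0.24, p = 0.0754), with the replicate block (-0.31, p = 0.106), and on leaving out any one of Veh 3, Veh 6, Veh 9, Veh 12, Dox 1, Dox 2, Dox 5 and Dox 7, when the change lay between -0.45 and -0.31 over all 26 such fits. Within the first kind of library alone the difference was -0.29 (p = 0.120), and within the second kind it was -0.51 (p = 0.00254).

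Cldn11 encodes the claudin of the tight junctions that seal the edges of the myelin wraps. Its level ran from 1313 through 1700 to 2732 normalized counts in Veh and from 940 through 1384 to 2053 in Dox, and 3 Dox rats lay below every Veh rat. The difference was -0.33 on the log2 scale (SE 0.16), with p = 0.0440 and an adjusted p of 0.479. In the second kind of library the 3 Dox rats lay at 940 to 1358 and the 6 Veh rats at 1548 to 2114, so that these groups did not overlap, with a difference of -0.75 and p = 0.000113 in limma, where 553 of 15533 genes were called, whereas in the first kind the difference was -0.04. The test of that divergence between kinds gave p = 0.0176, which misses the threshold. Of the 3 Dox rats of the second kind, the lower values, 965 and 940, were those of Dox 5 and Dox 7, and without this pair the Cldn11 difference over both kinds was -0.14 (p = 0.343).

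Ermn encodes ermin, a cytoskeletal protein of the outer myelin lips and paranodes that appears late in myelination. Over all rats its levels were 6.83 times as high in Veh 12 as in Dox 2, with a pooled SD within groups of 0.59 on the log2 scale beside 0.26 to 0.42 for the other 8 genes, a width that rests on Dox 1 and Dox 2. Without that pair the highest level was 2.48 times the lowest, below the 3.81 times of Opalin and the 3.28 times of Mbp, and in Veh alone the SD of Ermn was 0.43 beside 0.54 for Opalin and 0.53 for Mbp. Its level ran from 246 through 343 to 585 in Veh and from 85.6 through 267 to 507 in Dox. Dox 1 and Dox 2, at 126 and 85.6, lay below every other rat, and the groups otherwise overlapped. The difference of -0.53 (SE 0.26; p = 0.0513, adjusted p = 0.496) was -0.11 (p = 0.590) without Dox 1 and Dox 2 and -0.82 (p = 0.00301) without Dox 5 and Dox 7. In the first kind of library the 5 Dox rats lay at 85.6 to 276 and the 4 Veh rats at 263 to 524, a difference of -0.99 (p = 0.00284), where 745 genes were called in all. In the second kind the 3 Dox rats lay at 366 to 507 and the 6 Veh rats at 246 to 585, a difference of 0.24 (p = 0.337). The test of the divergence between kinds gave p = 0.00678 and an adjusted p of 0.114 in limma, a threshold that 1209 of 15595 genes (7.75%) passed. Both Dox 1 and Dox 2 belong to the first kind.

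Mog encodes a glycoprotein on the outermost face of the sheath. Its level ran from 441 through 563 to 917 normalized counts in Veh and from 391 through 507 to 572 in Dox, where Dox 1 and Dox 2 at 391 and 393 lay below every Veh rat. The difference was -0.21 (SE 0.12; p = 0.0888), and -0.11 without those 2 rats (p = 0.389). Mbp ran from 25851 through 47916 to 84848 in Veh and from 31287 through 38936 to 52854 in Dox, and 7 of 8 Dox rats lay below the Veh median but none below the lowest Veh rat. The Mbp difference was -0.26 (SE 0.19; p = 0.171). Mbp was higher in the second kind of library by 0.45 (p = 0.00673), in a contrast of kinds that were drawn from the same values and that 35.1% of all genes passed. The difference between Dox and Veh was -0.16 (p = 0.336) when the kind was a covariate, -0.17 in the first kind and -0.20 in the second, -0.37 (p = 0.0256) with array weights and -0.06 (p = 0.806) with the replicate block.

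The other 4 genes lay closer to Veh. Mag, the adhesion molecule that faces the axon, had means of 2259 ± 570 (SD, n = 10) in Veh and 2219 ± 410 (SD, n = 8) in Dox, a log2 difference with a 95% interval of -0.31 to 0.30. The kinds of library gave opposite directions, 0.34 (p = 0.0912) in the first and -0.30 (p = 0.0361) in the second, neither of them called, and the test of the divergence gave p = 0.0195. Mobp, a basic protein of compact myelin, had medians of 2956 and 2800 and an interval of -0.39 to 0.28. Opalin, a transmembrane protein of oligodendrocytes in the central nervous system, had medians of 444 and 501 and an interval of -0.36 to 0.40. Mal, a proteolipid of lipid raft transport, had medians of 1159 and 1344 and an interval of -0.13 to 0.43. Dox 1 and Dox 2 held the 2 highest Mal levels of the Dox group, 1945 and 1572, and the 2 highest Mag levels, 2916 and 2512, while they held the 2 lowest levels of Ermn and Mog. These intervals are too wide to say that the genes did not change.

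**Figure D2:**
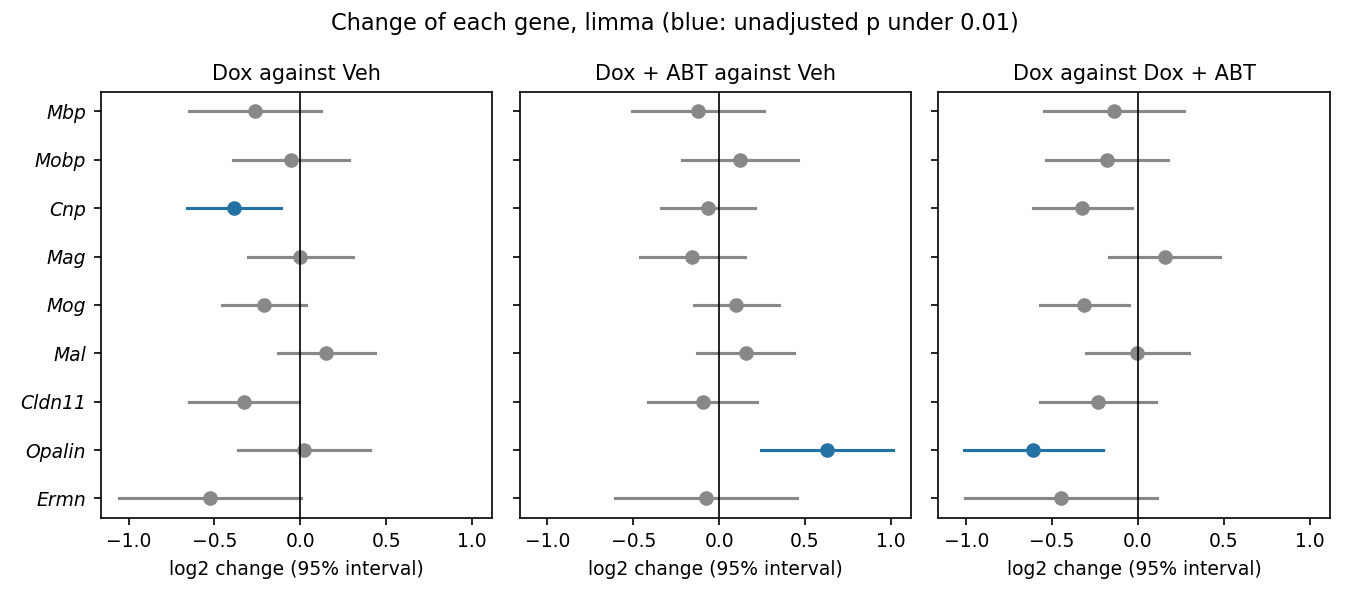
Log2 change of each of the 9 genes (x axis, points, with the 95% interval from limma as a bar) in the 3 comparisons, with genes on the y axis. Blue marks an unadjusted p under 0.01, reached by Cnp at -0.39 in Dox against Veh and by Opalin at 0.63 in Dox + ABT against Veh and at -0.61 in Dox against Dox + ABT.

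To determine how these genes stood when ABT-263 was added to Dox, the Dox + ABT group was compared with Veh. Opalin was higher in Dox + ABT and was the one gene of the 9 called, and the other 8 had p of at least 0.273. Of all genes tested, 606 (3.89%) were called higher and 616 (3.95%) lower, together 1222 (7.84%), and 0 had an adjusted p under 0.05 although 3510 had an unadjusted p under 0.05. The median log2 change of the 9 genes was -0.06, with 4 higher and 5 lower, and it turned to 0.14 with the kind of library as covariate, 0.08 after quantile scaling and 0.01 without Veh 6, and was 0.0006 without Veh 12.

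Opalin ran from 312 through 444 to 1188 normalized counts in Veh and from 580 through 758 to 936 in Dox + ABT, with means of 517 ± 251 (SD, n = 10) and 750 ± 110 (SD, n = 8). All 8 Dox + ABT rats lay above the Veh median, and 9 of the 10 Veh rats lay below the lowest Dox + ABT rat, the exception being Veh 6 at 1188. The difference was 0.63 on the log2 scale (SE 0.19), with p = 0.00224 and an adjusted p of 0.109 in limma, and an exact permutation test gave p = 0.00816. The change lay between 0.56 and 0.77 and stayed under the threshold on leaving out any single rat. It moved with the kind of library. Opalin was lower in the second kind by 0.53 on the log2 scale (SE 0.14; p = 0.000725), where 6 of 10 Veh rats but 1 of 8 Dox + ABT rats belong, in a contrast of kinds that 35.1% of all genes passed. With the kind as a covariate the difference was 0.38 (p = 0.0316), and among the first kind alone, with 4 Veh rats at 512 to 1188 and 7 Dox + ABT rats at 580 to 936, it was 0.14 (p = 0.454). The 1 Dox + ABT rat of the second kind had 800.2 normalized counts, above the 6 Veh rats of that kind at 312 to 478.

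The other 8 genes overlapped between Dox + ABT and Veh without being called. Cnp ran from 3355 through 3852 to 6238 normalized counts in Dox + ABT, a difference of -0.06 with a 95% interval of -0.34 to 0.21. Ermn ran from 236 through 340 to 565, a difference of -0.08 with an interval of -0.61 to 0.45. For Mog the levels ran from 529 through 575 to 793, and the interval was -0.14 to 0.35. The differences of Mbp, Mag, Mobp, Mal and Cldn11 lay between -0.16 and 0.15. For Mal, 7 of 8 Dox + ABT rats lay above the Veh median and 1 above every Veh rat. For Mag, 7 of 8 lay below the Veh median, and the difference of -0.16 (p = 0.301) was -0.31 (p = 0.0140) with array weights and -0.04 (p = 0.790) when the kind was a covariate.

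One of the 5 transcript rows of Mbp, which held on average 0.176% of the gene's signal (77.5 normalized counts), was higher in Dox + ABT than in Veh by 0.96 (SE 0.33; p = 0.00738, adjusted p = 0.148 over 20203 rows). The 3 rows that made up most of Mbp, with 18.9%, 37.7% and 40.8% of its signal, differed by 0.08, -0.16 and -0.17. How reads were divided between overlapping transcripts is not given in the sources used here, so the minor row is uncertain.

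To determine whether ABT-263 altered these genes in rats that received Dox, the 2 treated groups were compared directly. Opalin was lower in Dox than in Dox + ABT, and Mog, Cnp, Ermn, Cldn11, Mobp and Mbp also lay lower on average without being called. Of all genes tested, 267 (1.71%) were called lower in Dox and 362 (2.32%) higher, together 629 (4.03%), and 0 had an adjusted p under 0.05, with 1974 at an unadjusted p under 0.05. The median log2 difference of the 9 genes was -0.23 and 8 of 9 lay lower in Dox, beside 50.2% of all genes, and this median was -0.15 with array weights, in the first kind of library alone and without Dox 7. Lower in Dox were 6 of 9 in the first kind alone and with the replicate block, which here kept only the 3 replicate numbers found in both groups. The 4 thalamic markers also lay lower in Dox than in Dox + ABT, with a median of -0.25 and 0 called, Slc17a6 among them at -0.94 (p = 0.0162). Their summed level ran from 356 to 657 normalized counts in Dox and from 484 to 736 in Dox + ABT. The 2 tested choroid plexus markers lay lower as well, Ttr at -1.63 (p = 0.0147 in limma) and Clic6, averaging 6.97 normalized counts, at -1.08. So did 3 of 4 CA1 markers, while the 3 CA3 markers lay higher, and 0 of these were called. The part of these tissues in the result was not tested. This comparison shares the Dox rats with the first and the Dox + ABT rats with the second, so its values are not independent of theirs.

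For Opalin, 7 of the 8 Dox rats, at 326 to 575 normalized counts, lay below every Dox + ABT rat, at 580 to 936, and Dox 1 at 775 was the exception. The difference was -0.61 (SE 0.20), with p = 0.00445 and an adjusted p of 0.198 in limma, and an exact permutation test gave p = 0.00202. It was -0.48 (p = 0.00704) when the kind of library was a covariate and -0.40 (p = 0.0356) in the first kind alone, with 5 and 7 rats. With the replicate block, which kept only replicates 1, 2 and 5 of each group, the difference was -0.29 (p = 0.185 in limma). The numbers do not pair rats. Leaving out Dox 5 and Dox 7 ended the call (-0.54, p = 0.0157), as did leaving out Dox 7, Dox 14 or Dox + ABT 3 alone, with changes between -0.71 and -0.53 over the 26 fits.

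Mog showed all 8 Dox rats, at 391 to 572 normalized counts, below the Dox + ABT median of 575, and 6 of them below the lowest Dox + ABT rat at 529. The Mog difference was -0.31 (SE 0.13; p = 0.0199, adjusted p = 0.301 in limma), an exact permutation test gave p = 0.00591, and with the kind as a covariate it was -0.35 (p = 0.00838). Without Dox 1 and Dox 2 it was -0.21 (p = 0.120), and without Veh 6, which enters only the shared estimate of the spread, the call was made. Cnp was lower in Dox by a similar amount, -0.32 (SE 0.14; p = 0.0293), with 7 of 8 Dox rats below the Dox + ABT median. That Cnp difference was -0.15 (p = 0.217) with array weights, -0.18 (p = 0.265) in the first kind of library and -0.49 (p = 0.0144) with the replicate block, and it was called after quantile scaling at -0.43 (p = 0.00440). Ermn differed by -0.45 (SE 0.27; p = 0.111) over all rats, by -0.81 (p = 0.00450) in the first kind of library, and by -0.03 (p = 0.876) without Dox 1 and Dox 2. Mag alone lay higher in Dox, by 0.16 (p = 0.329).

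**Figure D3:**
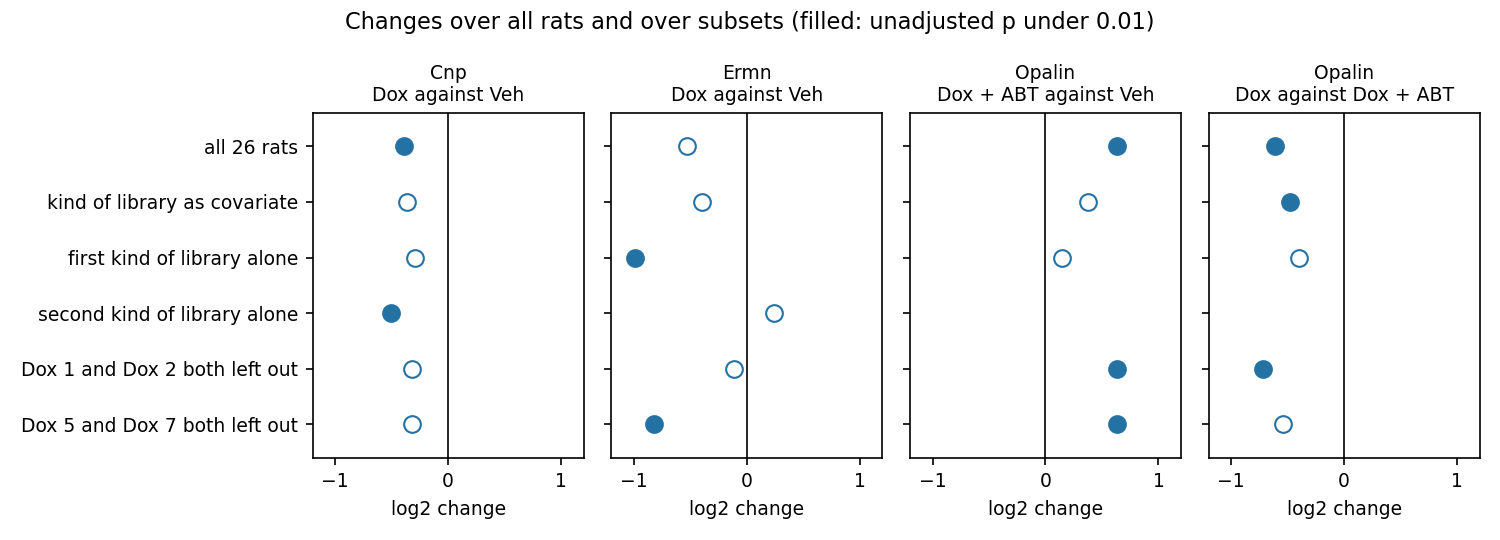
Log2 change (x axis) of Cnp, Ermn and Opalin in the comparison named above each panel, over all 26 rats and over the adjusted fit or subset named on the y axis; filled points have an unadjusted p under 0.01 in limma, and the second kind of library has too few Dox + ABT rats for a value. Ermn moves from -0.99 in the first kind to 0.24 in the second, and Opalin against Veh from 0.63 over all rats to 0.14 in the first kind.

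Around these comparisons stood the rest of the oligodendrocyte programme, in lists chosen with earlier results of these data known. Of 34 gene IDs of other myelin and mature oligodendrocyte genes tested, among which Tmem125 has 2, 5 were called lower and 0 higher in Dox against Veh, with a median change of -0.15, beside the 1.85% of all genes called lower. The smallest p was that of Apod, an apolipoprotein made by oligodendrocytes, at -0.70 (p = 0.000467, adjusted p = 0.140 in limma). Of 12 enzymes of myelin lipids, 2 were called lower and 0 higher, namely Enpp2, which makes lysophosphatidic acid, at -0.55 (p = 0.000283), and Ugt8, which makes galactocerebroside, at -0.45 (p = 0.00601). Aspa, the aspartoacylase that supplies acetate for lipid synthesis, gave 0.51 with p = 0.0257, which misses the threshold. None of 12 oligodendrocyte transcription factors was called in either direction, and Olig2, with the smallest p of them in Dox against Veh, was at -0.32 (p = 0.0131). Of 15 genes of the precursor and newly formed stages, Enpp6, a mark of newly formed oligodendrocytes, was called lower at -0.68 (p = 0.000287). Of 11 axonal partners at the node and paranode, 0 were called. Some markers of other cell types were called lower in the same comparison. These were 2 of 5 astrocyte markers (Aqp4 and Aldh1l1, both at -0.43) and 2 of 5 microglial markers (Cx3cr1 at -0.64, Tmem119 at -0.50). Of 3 endothelial markers 1 was called lower (Slco1a4 at -0.96), and 0 markers of these 3 lists were called higher. The other 2 endothelial markers lay higher without being called (Flt1 at 0.52, p = 0.0606 in limma, and Cldn5 at 0.21). So did 2 of 5 astrocyte markers (Gja1 at 0.06 and Slc1a3 at 0.03) and 1 of 5 microglial markers (C1qa at 0.18). The part of these cell types in the changes of oligodendrocyte genes was not tested.

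In Dox against Dox + ABT, 6 of the 34 other mature genes and 3 of the 12 lipid enzymes were called lower, among them Enpp2 at -0.65 (p = 7.58e-05, adjusted p = 0.0675 in limma), and 0 of either list higher, beside the 1.71% of all genes called lower. Of the precursor and newly formed stages 1 of 15 genes, again Enpp6, was called lower at -0.64 (p = 0.000843). Aqp4 at -0.45, 1 of 5 astrocyte markers, and Slco1a4 at -0.91, 1 of 3 endothelial markers, were also called lower. The other 2 endothelial markers lay higher without being called, Cldn5 at 0.57 (p = 0.0343 in limma) and Flt1 at 0.46, as did 2 of 5 astrocyte markers. In Dox + ABT against Veh, where 3.89% of all genes were called higher and 3.95% lower, 1 of the 34 mature genes, Hapln2, a link protein of nodes of Ranvier, was called higher at 0.79 (p = 0.00389), a share below that of all genes, and St18 was the 1 of 12 transcription factors called, at 0.51 (p = 0.00454). Cspg4, C1ql1 and Bmp4, genes of the precursor and newly formed stages, were the 3 of 15 called lower there, at -0.35, -0.44 and -0.61, and Epb41l3, which anchors paranodal junctions, was the 1 of 11 axonal partners called higher, at 0.23 (p = 0.00842). The granule cell marker C1ql2 was called lower in the same comparison at -0.46 (p = 0.000697), 1 of 4 markers. So were the astrocyte marker Aldh1l1 at -0.47 (p = 0.00175) and the microglial marker Csf1r at -0.48 (p = 0.00199), 1 each of 5. The granule cell marker Prox1 at 0.22 and the astrocyte markers Slc1a3 at 0.25, Gja1 at 0.18 and Aqp4 at 0.02 lay higher without being called. All 5 microglial markers lay lower. The part of these cell types in the other changes was not tested. Hapln2, St18, Cspg4, C1ql1, Bmp4, Epb41l3 and the called marker genes were named for these calls after their values were seen.

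Among themselves the 9 genes differed between rats of the same group mostly in the same direction. With group means removed, the 36 pairs had a median Pearson's r of 0.57 and Spearman's rho of 0.48 over the 26 rats, and r was above 0.5 in 22 pairs. Tested by permutation within groups, 26 pairs had an adjusted p under 0.05 for r and 22 for rho, over the 36 pairs. The highest values were those of Cnp and Cldn11 (r = 0.82, rho = 0.87), Mbp and Mog (r = 0.82, rho = 0.70), Mobp and Mal (r = 0.82, rho = 0.65) and Mog and Cnp (r = 0.82, rho = 0.71), with permutation p of 1e-05 to 2e-05 for r, the first of these the smallest that 100000 permutations can give. Leaving out for each pair the 2 rats farthest from the median of the first gene gave a median r of 0.38 with 14 pairs above 0.5, a step that narrows the range of the first gene and so tends to lower r. For the 4 pairs named, r was then 0.80, 0.74, 0.65 and 0.68. Within the first kind of library the median r was 0.74.

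Ermn and Opalin shared less of this variation. The mean r of Ermn with the other 8 genes was 0.27 and that of Opalin 0.35, whereas the other 7 genes had mean values of 0.45 to 0.65. In Ermn, Dox 1 and Dox 2 lay -1.64 and -2.57 within-group SDs from their group mean. They lay at 1.24 and 0.60 in Mag and 1.67 and 0.67 in Mal, opposite to Ermn, and at -1.195 and -1.153 in Mog. The r of Ermn so rests in part on this pair, and it was not computed without them. Ermn had r of 0.04 with Mag (rho = 0.08), -0.04 with Cldn11 (rho = 0.00) and 0.00 with Opalin (rho = 0.04), with adjusted permutation p of 0.882 to 0.999 for r. It followed Mog more closely, at r = 0.64 (rho = 0.66, adjusted permutation p = 0.000426), as well as Mbp at r = 0.52 (rho = 0.48, adjusted p = 0.00268 by permutation) and Mobp at r = 0.44 (rho = 0.37, adjusted p = 0.0228 by permutation). Opalin followed Mobp (r = 0.68, rho = 0.65) and Mal (r = 0.62, rho = 0.48) but not Mag (r = 0.17, rho = 0.02, adjusted permutation p = 0.509). The kind of library was not removed from these values, and in the second kind Opalin was lower by 0.53 while Mag was higher by 0.24 and Mbp by 0.45.

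**Figure D4:**
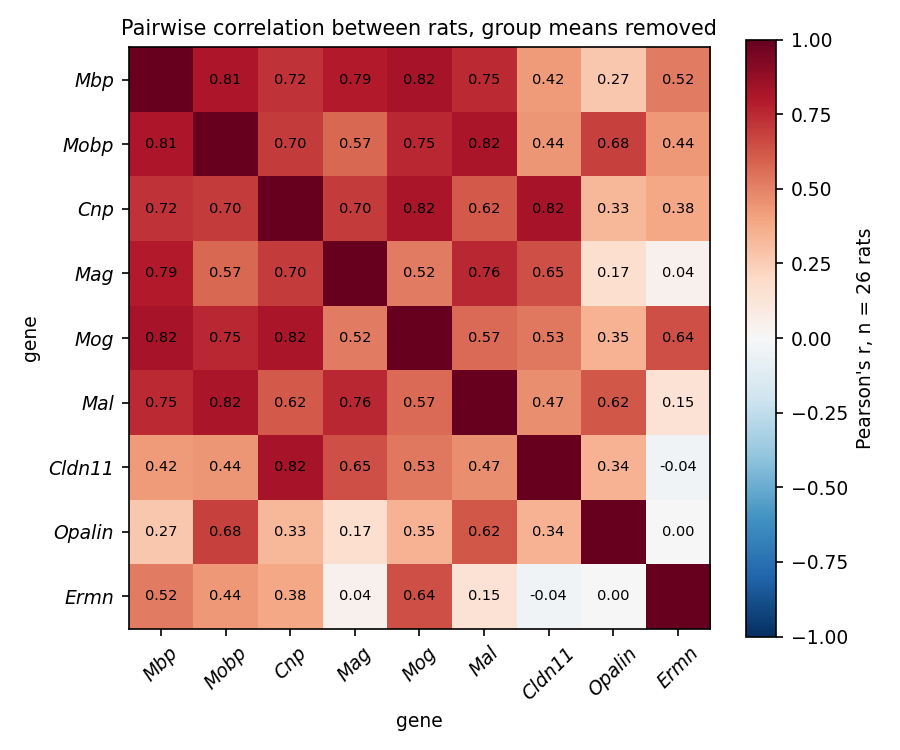
Pearson's r between the 9 genes over 26 rats, calculated on log2 values with group means removed; both axes list the genes and each cell holds its r. The other 7 genes form a block that is mostly above 0.5, while the Ermn row falls to -0.04 with Cldn11 and the Opalin row to 0.00 with Ermn.

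The rat with the highest levels was Veh 6, which had the highest value of all 26 rats for Mbp, Mog, Mag, Cnp, Mobp, Cldn11 and Opalin. Its mean deviation over the 9 genes was 2.16 within-group SDs above its group, and that of Veh 10, the lowest, was -1.10. Mal was highest in Dox + ABT 4, at 2088 normalized counts, and Ermn in Veh 12, at 585. Over the 26 rats this mean deviation moved with the summed level of the CA1 pyramidal markers (r = 0.72, rho = 0.74) and with that of the microglial markers (r = 0.57, rho = 0.54), and opposite to the granule cell markers (r = -0.53, rho = -0.49). All levels share the library and its normalization, and the part of these cell types in the variation was not tested. The same measure gave r of 0.29 for the astrocyte markers, 0.15 for the endothelial, 0.20 for the choroid plexus, 0.43 for the Schwann cell, 0.57 for the thalamic and -0.48 for the CA3 markers. Summed levels lay between 2721 and 5359 normalized counts for the microglial markers, 17494 and 31773 for the astrocyte, 929 and 3536 for the endothelial, 4295 and 12754 for the CA3, 350.2 and 739 for the thalamic and 7.61 and 354 for the choroid plexus markers.

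**Figure D5:**
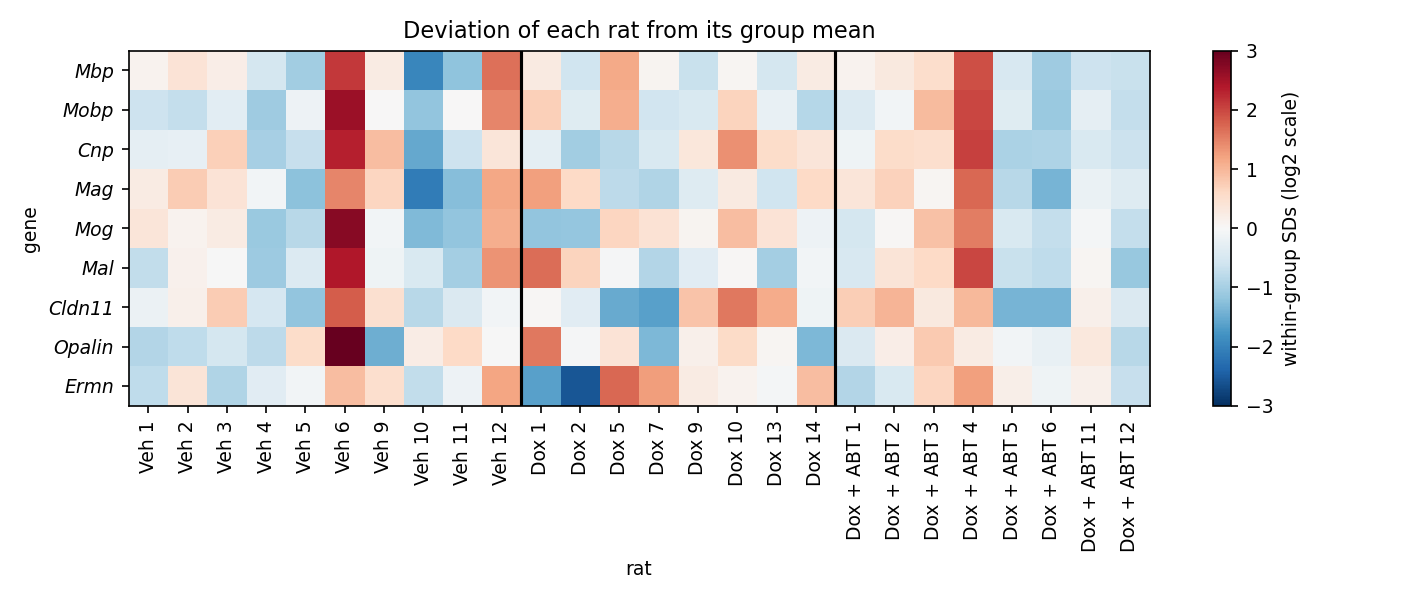
Deviation of each rat (x axis, groups divided by black lines) from its group mean for the 9 genes (y axis), in within-group SDs of the log2 values. Veh 6, Veh 12 and Dox + ABT 4 are high in most genes, and Dox 1 and Dox 2 are low in Ermn and Mog but high in Mag and Mal.

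Outside the 9 genes, those whose deviations were most like their mean among 12120 genes averaging 50 or more normalized counts were Hdac11 (r = 0.95), Cds1 (0.91), RGD1311739 (0.89), Dpysl5 (0.89), Zcchc24 (0.89), Ndrg1 (0.88), Cacna2d2 (0.87), Whrn (0.87), Stac2 (0.86) and Ttc9 (0.86), over 26 rats. Hdac11 is a histone deacetylase. Spearman's rho for these 10 genes lay between 0.72 and 0.93, and without Veh 6 their r lay between 0.81 and 0.94. The median r was 0.63 over 31 other mature oligodendrocyte genes, 0.58 over 11 lipid enzymes, 0.54 over 10 transcription factors, where Myrf was highest at 0.84, 0.30 over 14 precursor and newly formed stage genes and -0.17 over 11 axonal partners, beside -0.02 over all 12120 genes.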

How the data were processed

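Poly(A) RNA of the DG of 26 rats (10 Veh, 8 Dox, 8 Dox + ABT) was measured with 1 library per rat. Reads from an Ion Proton were aligned by the authors in Partek Flow with STAR (2.5.3a, from the submitters' processing notes) to rn6, normalized by the Median Ratio method and tested with DESeq2. The deposited values are this normalized signal per transcript row, not raw counts, so no count test was run. Library sizes were estimated from the spacing of low values at 10166100 to 24326700 reads. The attribute table served only to match the names of the Veh columns to their samples, and 0 columns of values were unmapped.

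The 24012 rows were summed by gene ID, and log2(value + 1) was fitted with limma 3.58.1 in R 4.3.3 (variance trend, 3 groups, no covariate) for the 15595 genes whose mean was 5 or more. All tests were two-sided, the threshold was an unadjusted p under 0.01, and adjusted p-values are Benjamini-Hochberg over all tested genes. Fold changes on this scale understate those of low genes. The p-values measure the spread between rats. The fit was tested on simulated data. Correlations used log2 values with group means removed and 100000 permutations within groups. The genes and lists were chosen with earlier results of these data known. Named were the 9 genes, the 3 genes of smallest p in Dox against Veh of each other oligodendrocyte list, and the 10 genes most alike. The same rule's genes of the cell type marker lists are given as sums or single markers, and a few genes it picks are left unreported. The kinds of library were split at the largest gap of scores on the first component of within-group deviations, over genes whose mean was 20 or more. Alternatives were other pseudocounts and filters, variance settings, array weights, the compared groups alone, rescaling and transcript rows. Others were the kind of library, a replicate block, exact tests and leaving out rats. The block fits kept only rats whose replicate number occurs in both compared groups. Leaving out Dox 1 with Dox 2, these with Veh 6, and Dox 5 with Dox 7 were chosen after seeing the data. Figures used matplotlib 3.10.9 in Python 3.11.15.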

Additional observations from a re-analysis of the deposited data

Results flagged for a closer look

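In 6 of 27 sets of values (9 genes in 3 groups), 1 rat lay apart from the others of its group by Dixon's test at the 95% level. Chance flags about 1 in 20 groups only where values are normally distributed. The test used normalized counts and not the log2 values of the other tests, so that rate need not hold. All 6 flags were of the highest value in the group, and the test was not repeated on log2 values. Veh 6 lay apart for Opalin, at 1188 normalized counts against 570.5 in the next Veh rat, and for Mog, at 917.3 against 681.6. Dox + ABT 4 lay apart for Mbp, at 73497 against 49135, for Cnp, at 6238 against 4581, and for Mal, at 2088 against 1546. Dox 5 lay apart for Mbp, at 52854 against 41095. These flags are not independent, since they fall on 3 rats and the genes vary together.

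The change of Ermn in Dox against Veh differed between the kinds of library, with a difference of -1.23 on the log2 scale between -0.99 in the first kind and 0.24 in the second (p = 0.00678, adjusted p = 0.114 in limma). The comparison rests on 5 Dox and 4 Veh rats in the first kind and 3 and 6 in the second.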

How the results depend on the processing

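Of the members' log2 changes under all alternatives, 1106 kept their direction and their side of the threshold, 35 crossed it and 56 changed sign. Many of these could not change sign. Leaving out a rat outside the comparison, another filter, another variance setting or an exact test leaves the log2 change itself as it was. Without the fits that left out a single rat, 445 kept both and 27 changed sign. Of the rest, 14 fell out of the threshold and 9 came under it. Genes called among the 9 in Dox against Veh numbered 0 instead of 1 without a variance trend, with array weights, when the kind of library was a covariate, with the replicate block, in the exact permutation test, without Dox 1 and Dox 2, and also without Veh 6, and 2 (Cnp and Cldn11) in the second kind of library. In Dox + ABT against Veh they numbered 0 instead of 1 with the kind as a covariate and in the first kind, and in Dox against Dox + ABT 2 with the compared groups alone, after quantile scaling, with the kind as a covariate and in the exact test, and 0 with the replicate block. Leaving out 1 rat gave 0 to 1, 1 to 1 and 0 to 2.

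Over all genes, array weights called 3150, 5297 and 1612 in the 3 comparisons, and the first kind alone 745, 172 and 1275. The kind as a covariate called 214 in Dox + ABT against Veh. In Dox against Veh, 181 were called without Dox 1 and Dox 2, 147 also without Veh 6, and 1132 without Dox 5 and Dox 7. Leaving out 1 rat gave 266 to 707, 694 to 2130 and 419 to 787. The replicate numbers do not pair rats, with correlations of -0.22 to 0.44 between equal numbers. The replicate block kept only the numbers found in both groups, 5, 8 and 3 in the 3 comparisons. It called 323 genes in Dox against Dox + ABT.

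The sign changes were of differences that were not called over all rats, and the causes were not tested. In Dox against Veh, Mag turned to 0.0074 with trimmed means, 0.0059 with quantiles, 0.054 with the kind as a covariate, 0.34 in the first kind, 0.17 with the replicate block and 0.094 without Dox 5 and Dox 7. Mobp turned to 0.043 with array weights, 0.020 for its main row, 0.26 with the block and 0.029 without Dox 1, Dox 2 and Veh 6. Opalin turned to -0.101 with the covariate, -0.25 in the first kind and -0.089 without Dox 1 and Dox 2, and Ermn to 0.24 in the second kind. In Dox + ABT against Veh, Mbp turned to 0.083 with quantiles and 0.089 with the covariate, Cnp to 0.054 with quantiles and 0.013 without Dox 1, Dox 2 and Veh 6, Ermn to 0.21 with the covariate, and in the first kind Mag to 0.025 and Mobp to -0.0997. In Dox against Dox + ABT, Cldn11 turned to 0.068 with array weights and 0.046 in the first kind, Mal to 0.15 in the first kind, 0.31 with the block and 0.044 without Dox 5 and Dox 7, and Mobp to 0.11 with the block. Leaving out 1 rat changed the sign of 6 differences, which then ranged from -0.0795 to 0.0538 for Mag, -0.115 to 0.0502 for Mobp and -0.0765 to 0.165 for Opalin in Dox against Veh, from -0.151 to 0.0134 for Cnp and -0.182 to 0.0006 for Ermn in Dox + ABT against Veh, and from -0.0765 to 0.0846 for Mal in Dox against Dox + ABT.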
